A study of Mus musculus with 8 samples.

Results

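The 54 genes described here drive the cell cycle of mouse primary lung fibroblasts (pFBs). They were chosen by symbol for what each gene does, and comprise 28 genes of mitosis, 19 of DNA replication and 7 cyclins and transcription factors of the G1/S step. All 54 were found among the 54532 entries of the deposited table and all 54 passed the filter on low counts, which left 14150 genes. The RNAseq data come from pFBs of female C57/black mice, 4 libraries of wild type mice (WT1 to WT4) and 4 of mice homozygous for a human IGFBP5 transgene (HOMO1 to HOMO4), and n counts libraries. The transgene was knocked in by CRISPR/Cas9 under the Ef1a1 promoter, which is not restricted to fibroblasts. All cells of both genotypes were grown out of minced lung pieces in medium with serum, were used after several passages and received no treatment. The age of the mice and the number of mice behind the libraries are not given in the sources used here, so p-values measure the spread between these libraries, which may in part be technical.

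A cell that leaves rest first licenses its DNA by loading the MCM helicase, then copies it in S phase, and then divides in mitosis. The RB proteins and the DREAM complex hold these genes silent at rest. E2F factors switch on the replication genes at the G1/S border, and B-MYB and FOXM1 switch on the mitotic genes later, in G2. In fibroblasts, which can rest for long periods in tissue and divide in response to serum or injury, the level of these transcripts is widely used as a readout of how many cells are cycling. In RNA from bulk culture, fewer cycling cells and less of each transcript per cell cannot be told apart.

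The libraries held between 17236521 and 31987790 counts. Levels are given as CPM, counts scaled to a common depth, on library sizes scaled by TMM, and 3 counts, the floor used here, correspond to between 0.0908 and 0.172 CPM, counting error only. The lowest count of any of the 54 genes in any library was 18. Distances between libraries of a genotype varied. WT1 and WT2 differed by a biological coefficient of variation of 7.66%, HOMO1 and HOMO2 by 4.72% and HOMO3 and HOMO4 by 5.08%, against 30.2 to 56.7% for every other pair within a genotype. Each close pair differed by more than sampling noise (chi-square over degrees of freedom between 4.03 and 8.14), so none was 1 library deposited again, but the libraries of a pair may come from the same mouse or culture. The 8 libraries were tested as labelled, and if the pairs are not independent the p-values are too small. The 9 fibroblast markers summed to between 12937 and 24381 CPM, while 6 endothelial, 6 epithelial and 4 lymphocyte markers each summed to under 14 CPM in every library. The 4 smooth muscle markers, mostly *Acta2*, summed to 827, 768, 2705 and 861 CPM in WT1 to WT4 and 198, 205, 1450 and 1426 CPM in HOMO1 to HOMO4. The 4 mesothelial markers summed to 21.3, 23.3, 152 and 117 CPM in WT1 to WT4 and 128, 129, 90.1 and 97.7 CPM in HOMO1 to HOMO4. The sum of 8 macrophage markers, mostly *Lyz2*, was 113, 145, 1918 and 1131 CPM in WT1 to WT4 and 25.5, 24.2, 140 and 164 CPM in HOMO1 to HOMO4. The counts of mouse *Igfbp5* do not check the genotype labels, since the transgene is human, and transgene reads were not analysed here.

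Promoter windows are shown first. Most of the 54 genes rose and fell together over the 8 libraries, and the part of promoter motifs in this was not tested. Windows of 300 bases, from 250 before to 50 after the RefSeq start (GRCm38.p6), were listed for 44 of the 54 genes. They were searched on both strands for the CHR element (TTTGAA or TTCGAA), where DREAM, B-MYB and FOXM1 complexes are known to sit, for the CCAAT box (CCAAT), bound by NF-Y, and for the E2F site (TTTGGCGC, TTTCCCGC, TTTCGCGC or TTTGCCGC). E2F matches on opposite strands can overlap, and none of the motifs is part of another. The 5 windows below show 3 mitotic genes with CHR elements and CCAAT boxes, of which *Cdk1* also has an E2F site, and 2 replication genes with E2F sites. Each is written 5′ to 3′ on the strand of its gene, and capitals mark the motifs on either strand.
Ccnb2, chr9:70421505-70421804, minus strand: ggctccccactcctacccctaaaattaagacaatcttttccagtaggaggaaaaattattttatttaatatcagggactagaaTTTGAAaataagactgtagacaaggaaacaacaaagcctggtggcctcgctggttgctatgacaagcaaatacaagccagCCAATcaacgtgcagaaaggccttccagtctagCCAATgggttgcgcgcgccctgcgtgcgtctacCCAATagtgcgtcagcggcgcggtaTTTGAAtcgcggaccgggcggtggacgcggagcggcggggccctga
Top2a, chr11:99024140-99024439, minus strand: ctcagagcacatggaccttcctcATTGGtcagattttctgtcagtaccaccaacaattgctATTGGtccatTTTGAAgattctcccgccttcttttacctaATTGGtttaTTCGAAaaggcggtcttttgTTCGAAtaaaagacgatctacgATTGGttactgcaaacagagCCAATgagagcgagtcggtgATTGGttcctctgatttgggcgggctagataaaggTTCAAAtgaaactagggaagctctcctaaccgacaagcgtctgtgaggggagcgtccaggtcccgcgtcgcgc
Cdk1, chr10:69352863-69353162, minus strand: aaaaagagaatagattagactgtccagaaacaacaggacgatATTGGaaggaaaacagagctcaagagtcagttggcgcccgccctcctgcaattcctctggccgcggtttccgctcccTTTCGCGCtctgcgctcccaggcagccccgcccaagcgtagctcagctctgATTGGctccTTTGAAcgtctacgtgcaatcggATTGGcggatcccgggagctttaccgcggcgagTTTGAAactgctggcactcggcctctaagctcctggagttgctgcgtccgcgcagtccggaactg
Mcm6, chr1:128359656-128359955, minus strand: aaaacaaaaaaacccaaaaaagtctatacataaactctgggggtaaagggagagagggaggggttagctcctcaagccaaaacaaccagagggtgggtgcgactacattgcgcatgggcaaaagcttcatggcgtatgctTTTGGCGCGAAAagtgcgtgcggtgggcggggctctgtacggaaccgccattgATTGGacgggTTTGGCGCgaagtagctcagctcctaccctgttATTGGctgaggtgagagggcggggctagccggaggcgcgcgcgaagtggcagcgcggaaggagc
Cdt1, chr8:122567765-122568064, plus strand: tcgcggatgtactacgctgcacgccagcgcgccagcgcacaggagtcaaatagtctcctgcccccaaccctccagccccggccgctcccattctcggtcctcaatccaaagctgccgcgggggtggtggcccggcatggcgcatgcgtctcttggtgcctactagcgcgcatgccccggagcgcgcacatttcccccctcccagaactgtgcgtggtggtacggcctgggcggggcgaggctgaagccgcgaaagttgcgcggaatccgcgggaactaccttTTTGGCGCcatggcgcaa

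A CHR element stood in 18 of 23 mitotic genes with a window (78.3%), in 3 of 16 replication genes (18.8%), and in 21.7% of all 27025 genes of the table. All 18 of these mitotic windows also held a CCAAT box, a pair found in 8.61% of all genes. CCAAT boxes, with or without a CHR element, stood in 20 of 23 mitotic genes (87.0%) and 11 of 16 replication genes (68.8%), against 41.1% of all genes. E2F sites had the opposite distribution. They stood in 8 of 16 replication genes (50%) but in 1 of 23 mitotic genes (4.35%), *Cdk1*, against 2.60% of all genes. The G1/S group had windows for 5 genes, with 1 E2F site (*E2f7*) and 1 CHR element (*E2f8*). For 6 of the 44 genes, *Pttg1*, *Mcm5*, *Mcm7*, *Cdc6*, *E2f1* and *Mybl2*, the outermost start in the GENCODE M21 annotation lay outside the RefSeq window, so that another start may be used. Without these 6, E2F sites stood in 5 of 13 replication genes and 1 of 22 mitotic genes. A match here is a run of letters and not a bound site, and its absence says only that these letters are not in the window.

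**Figure D1:**
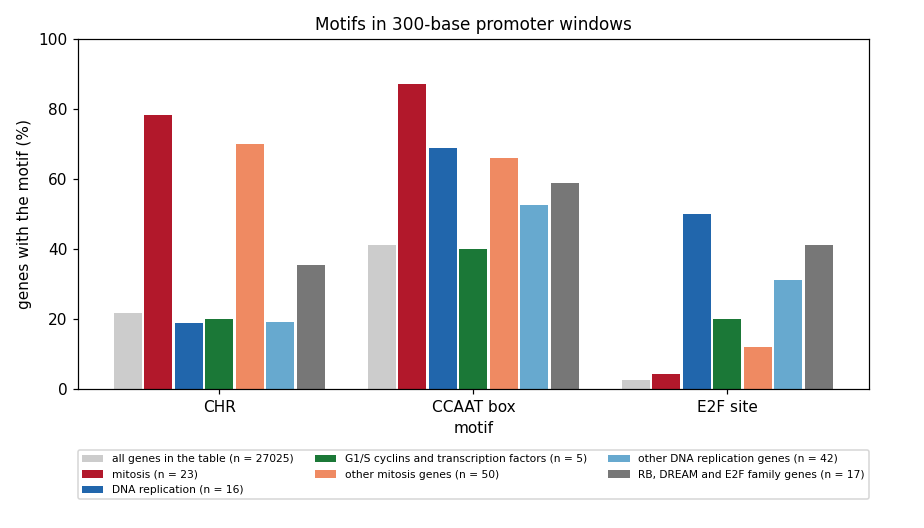
Share of genes (%) whose 300-base promoter window held each motif, for all genes of the table (grey), the 3 groups of the 54 genes and 3 further lists, with n the number of genes with a window. CHR elements were most frequent in mitotic genes (78.3%) and E2F sites in replication genes (50%).

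The largest differences in these 54 genes were between libraries of the same genotype. WT1, WT2, HOMO3 and HOMO4 held high levels and WT3, WT4, HOMO1 and HOMO2 low levels. The 54 genes took 0.569, 0.492, 0.0965 and 0.0642% of all counts in WT1 to WT4 and 0.115, 0.118, 0.425 and 0.381% in HOMO1 to HOMO4. Both WT1 and WT2 were above both WT3 and WT4 in 52 of the 54 genes, an order that 28.6% of all tested genes showed. HOMO3 and HOMO4 were likewise above HOMO1 and HOMO2 in 53 of 54, against 37.2% of all tested genes. In 51 of 54, WT1, WT2, HOMO3 and HOMO4 were the 4 highest libraries, against 7.84% of all tested genes, and the exceptions were *Pttg1*, *Ccne1* and *E2f1*. The extremes were both WT libraries: WT1 was the highest of all 8 in 47 genes and WT4 the lowest in 46. These orders were noted after the values were seen and describe these 8 libraries, so no test was run on them. The 2 WT libraries low in these genes, WT3 and WT4, were those with the high macrophage markers, whereas HOMO1 and HOMO2, also low, had the lowest macrophage sums. Within each genotype the mesothelial sums were higher in the low libraries, WT3 and WT4 and HOMO1 and HOMO2. The part of other cells in the result was not tested.

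**Figure D2:**
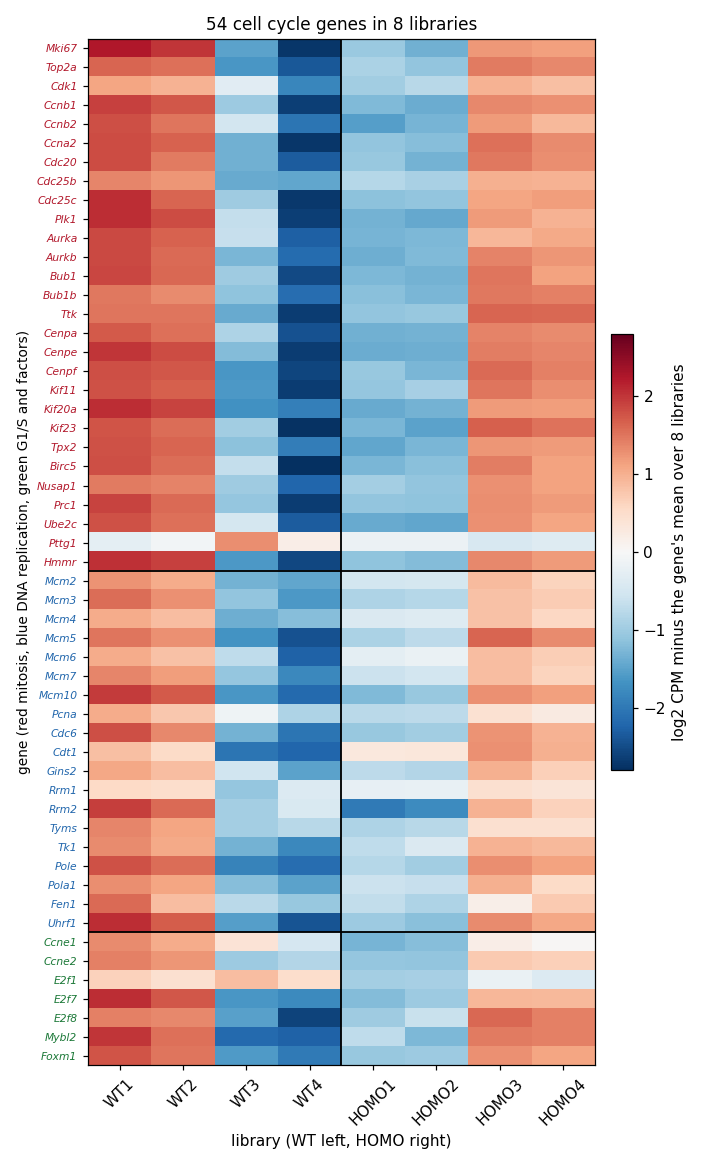
Level of each of the 54 genes (rows) in the 8 libraries (columns), as log2 CPM minus the gene's mean over the libraries, red above and blue below the mean. WT1, WT2, HOMO3 and HOMO4 are the 4 highest libraries in 51 rows, and *Pttg1*, *Ccne1* and *E2f1* depart from this.

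Between the highest and lowest library of a genotype, the median fold over the 54 genes was 14.8 in WT and 5.52 in HOMO, against 1.95 and 1.35 over all tested genes. The mitotic genes had the wider spread, with medians of 17.9 in WT and 6.48 in HOMO, and the replication genes the narrower, with 8.38 and 3.10. Summed over its 28 genes, mitosis stood at 2862, 2532, 417 and 181 CPM in WT1 to WT4 and at 385, 372, 2091 and 1922 CPM in HOMO1 to HOMO4. The sum of the 19 replication genes was 2267, 1934, 482 and 432 CPM in WT and 672, 692, 1752 and 1530.3 CPM in HOMO. The ratio of replication to mitosis was therefore 0.792 and 0.764 in WT1 and WT2 and 0.838 and 0.796 in HOMO3 and HOMO4, but 1.16 and 2.39 in WT3 and WT4 and 1.74 and 1.86 in HOMO1 and HOMO2. In both genotypes the low libraries thus had the higher ratio of summed CPM, in which genes with high CPM such as *Rrm1* weigh most. The ratio does not count transcripts, since CPM is not scaled by gene length. Mean log2 CPM relative to each gene's own mean was −1.03 for mitosis and −1.19 for replication in WT3, without that excess. It was −2.31 and −1.58 in WT4, −1.16 and −0.73 in HOMO1, and −1.19 and −0.69 in HOMO2. The 4 low libraries also differed among themselves. HOMO1 and HOMO2 were both above WT3 and WT4 in 14 of the 19 replication genes and in 10 of the 28 mitotic genes, where 34.6% of all tested genes showed this order. WT1 and WT2 were both above HOMO3 and HOMO4 in 45 of the 54, against 36.4% of all tested genes.

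**Figure D3:**
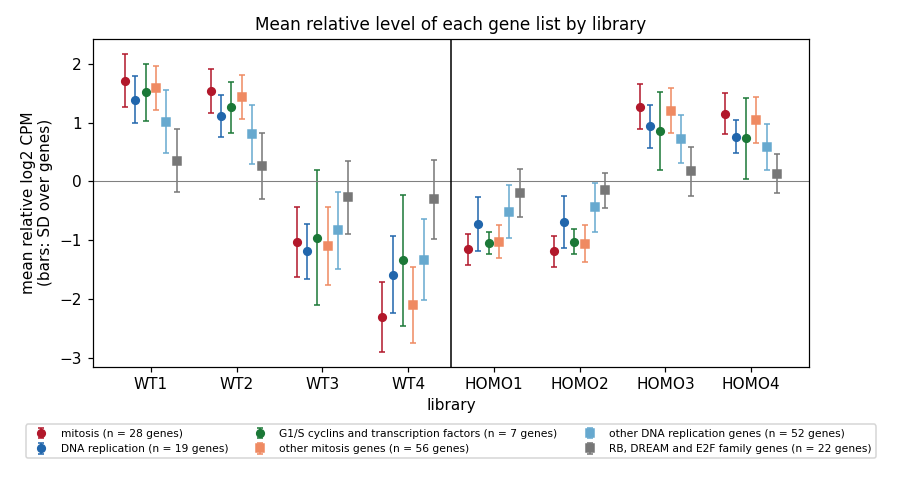
Mean over the genes of each list of log2 CPM relative to the gene's own mean, by library, with bars for the SD over genes. The mean of the mitotic genes ranged from −2.31 in WT4 to 1.72 in WT1. The mean of the RB, DREAM and E2F family genes stayed between −0.30 and 0.36, with an SD over genes of up to 0.67 (in WT4), so single genes moved more than the mean.

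Among mitotic genes, *Mki67* (chr7:135689784-135716361), whose product Ki-67 coats mitotic chromosomes, spread most within WT. It was at 255, 218, 19 and 8.13 CPM in WT1 to WT4 and at 26.2, 21.4, 126 and 121 CPM in HOMO1 to HOMO4, a 31.4-fold range in WT and 5.88-fold in HOMO. *Top2a* (chr11:98992943-99024189), the topoisomerase that untangles sister chromosomes, was at 365, 339, 37.9 and 22.5 CPM in WT and 63.4, 54.6, 323 and 298 CPM in HOMO. For both genes the 2 genotypes overlapped, with 2 high and 2 low libraries each. The log2 fold change of HOMO against WT, with its standard error (SE), was −0.77 (SE 1.05, edgeR adjusted p = 0.650) for *Mki67* and −0.05 (SE 0.95, edgeR adjusted p = 0.979) for *Top2a*, neither past the threshold.

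*Cdk1*, the kinase that starts mitosis, was at 117, 107, 43.6 and 15.2 CPM in WT and 27.6, 31.5, 107 and 97.3 CPM in HOMO. Its partner cyclin gene *Ccnb1* was at 126, 111, 16.2 and 5.26 CPM in WT and 14.0, 12.6, 84.3 and 80.2 CPM in HOMO. Relative to WT1, WT3 kept more *Cdk1* than *Ccnb1*. The other cyclins and phosphatases of this step, *Ccnb2*, *Ccna2*, *Cdc25b* and *Cdc25c*, had folds between 7.19 and 30.6 within WT over the 6 genes with *Cdk1* and *Ccnb1*. *Cdc25c*, an activator of CDK1, had the widest range of these, from 0.697 CPM in WT4 to 21.3 CPM in WT1.

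The kinases *Plk1*, *Aurka*, *Aurkb*, *Bub1*, *Bub1b* and *Ttk*, which build the spindle and check the attachment of chromosomes, spanned 12.2- to 27.0-fold within WT and 5.16- to 7.14-fold within HOMO. *Plk1*, needed for entry into and exit from mitosis, was at 94.1, 78.8, 14.1 and 3.48 CPM in WT and 8.78, 8.17, 51.1 and 43.6 CPM in HOMO. *Bub1b* and *Ttk*, both of the spindle checkpoint, had their highest level in HOMO3 (81.8 and 22.0 CPM) and not in WT1 (80.7 and 20.1 CPM). Of the centromere and kinetochore genes *Cenpa*, *Cenpe* and *Cenpf*, the histone variant gene *Cenpa* was at 78.8, 69.4, 13.1 and 4.34 CPM in WT and 9.41, 9.53, 62.6 and 60.5 CPM in HOMO. These 3 genes overlapped between genotypes and spanned 18.2- to 25.9-fold within WT.

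The 8 spindle and cytokinesis genes, the motors *Kif11*, *Kif20a* and *Kif23*, the spindle proteins *Tpx2*, *Nusap1*, *Prc1* and *Hmmr*, and *Birc5* (survivin, of the chromosomal passenger complex), spanned 13.0- to 25.1-fold within WT. *Tpx2*, an activator of Aurora A, was at 192, 173, 25.2 and 14.6 CPM in WT and 20.4, 23.0, 132 and 129 CPM in HOMO. *Kif20a*, a motor of the central spindle, had its WT3 level (12.6 CPM) close to that of WT4 (10.9 CPM), unlike *Birc5* with 12.1 and 2.67 CPM. For *Kif20a*, *Ube2c*, *Prc1*, *Ccna2* and *Cdc25c*, between 11.1 and 29.3% of exon bases also lay in exons of genes on the other strand, whose reads cannot be told apart unless the counting used strand, which is not stated.

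Anaphase control held the one mitotic gene that departed from the others. *Cdc20*, the activator of the anaphase-promoting complex, and *Ube2c*, the ubiquitin-conjugating enzyme that works with it, kept the common order, with *Cdc20* at 98.8, 77.0, 11 and 5.46 CPM in WT and 13.4, 11.1, 78.6 and 68.7 CPM in HOMO. *Pttg1* (chr11:43420250-43426251), which encodes securin, the inhibitor of separase that this complex removes, was at 15.1, 17.3, 45.1 and 20.6 CPM in WT and 16.2, 16.2, 13.3 and 14.0 CPM in HOMO. Its level was thus highest in WT3 and WT4, the WT libraries low in all other mitotic genes, and it varied by 1.22-fold among HOMO libraries. The log2 fold change of *Pttg1* was −0.71 (SE 0.34, edgeR adjusted p = 0.182), and without WT3 it was −0.24 (edgeR adjusted p = 0.302). *Pttg1* was the 1 mitotic gene without the common order and was named for it after its values were seen.

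Licensing and helicase genes formed the largest replication group. *Mcm7*, a subunit of the MCM2-7 helicase, was at 233, 202, 42.5 and 25.7 CPM in WT and 59.4, 62.7, 165 and 139 CPM in HOMO. *Mcm4*, another subunit, was at 128, 113, 23.8 and 26.9 CPM in WT and 46.8, 47.6, 109 and 92.4 CPM in HOMO, so that HOMO1 and HOMO2 lay well above WT3 and WT4. *Mcm6* showed the same with 51.3 and 17.5 CPM in WT3 and WT4 against 69.9 and 73.9 CPM in HOMO1 and HOMO2. Over the 10 genes of this group, with *Mcm2*, *Mcm3*, *Mcm5*, *Mcm10*, *Cdc6*, *Cdt1* and *Gins2*, the fold within WT ran from 5.37 to 18.3. The widest were *Mcm10* and *Mcm5*, and *Cdc6*, which loads the helicase, was at 32.8, 24.0, 3.67 and 2.21 CPM in WT and 4.46, 4.69, 22.6 and 18.3 CPM in HOMO.

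*Cdt1* (chr8:122568015-122573554), the licensing factor that works with *Cdc6*, had the highest log2 fold change of the 54 genes and is given for that after its values were seen. It was at 54.2, 43.7, 7.23 and 6.39 CPM in WT and 36.9, 37.2, 73.4 and 60.2 CPM in HOMO. HOMO1 and HOMO2 were therefore well above WT3 and WT4 and below WT1 and WT2, and HOMO3 and HOMO4 were the highest of all. The log2 fold change was 0.90 (SE 0.68, edgeR adjusted p = 0.393) and did not pass the threshold. *Cdt1*, *Mcm5* and *Gins2* lie on chromosome 8, where the median log2 fold change over 742 tested genes was 0.37, and the part of this shift in their values was not tested.

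At the fork, *Pcna* (chr2:132249162-132253314), the sliding clamp of DNA polymerases, had the highest level per length of all 54 genes, a mean of 47.5 CPM per kb of exon, ahead of *Mcm7* with 26.3. It was at 209, 173, 93.5 and 55.9 CPM in WT and 60.3, 61.8, 137 and 122 CPM in HOMO, a narrow 3.73-fold range within WT, and its log2 fold change was −0.48 (SE 0.44, edgeR adjusted p = 0.488). *Uhrf1* (chr17:56303321-56323486), which carries DNA methylation over to the new strand, spread most of the replication genes within WT, by 22.5-fold. Its level was 165, 129, 13.5 and 7.36 CPM in WT and 19.5, 17.5, 99.95 and 83.8 CPM in HOMO (log2 fold change −0.51, SE 0.99, edgeR adjusted p = 0.757). The polymerase genes *Pole* and *Pola1* followed the common order, with 68.9 and 52.9 CPM in WT1 and 4.49 and 7.47 CPM in WT4. *Fen1* (chr19:10199132-10204169), the flap nuclease of lagging strand synthesis, was counted at only 7.26, 4.42, 1.38 and 1.08 CPM in WT and 1.43, 1.27, 2.69 and 4.01 CPM in HOMO (log2 fold change −0.59, SE 0.66, edgeR adjusted p = 0.572). For *Fen1*, 84.2% of exon bases overlap a gene on the other strand, and for *Gins2* 67.3%, so both levels are uncertain. The share was 12.6% for *Mcm7*, 17.4% for *Ccne2* and 11.2% for *E2f8*.

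Of the genes that supply nucleotides, the 2 subunits of ribonucleotide reductase behaved differently. *Rrm1* (chr7:102441695-102469771), the large subunit, had the narrowest range of the replication genes, with 323, 309, 104 and 167 CPM in WT and 187, 189.7, 300.3 and 281 CPM in HOMO. Its log2 fold change was 0.09 (SE 0.36, edgeR adjusted p = 0.895), and its 95% interval from −0.73 to 0.90 was the only one of the 54 to lie wholly between −1 and 1. *Rrm2* (chr12:24708241-24714146), the small subunit made in S phase, was at 130.2, 102, 17.4 and 25.2 CPM in WT and 8.47, 9.89, 66.1 and 53.4 CPM in HOMO. HOMO1 and HOMO2 had the lowest *Rrm2* of all libraries while their *Rrm1* exceeded that of WT3 and WT4. The log2 fold change of *Rrm2* was −0.996 (SE 0.84, edgeR adjusted p = 0.447). *Rrm2* lies on chromosome 12, where the median log2 fold change over 466 tested genes was 0.21. Genes of chromosome 12 as a whole were also 0.63 higher in WT4 than in the other WT libraries on the log2 scale. The part of these shifts in the value of *Rrm2* was not tested. *Tyms* and *Tk1*, which make thymidylate anew and from salvage, kept the common order, with WT ranges of 5.06- and 8.88-fold.

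**Figure D4:**
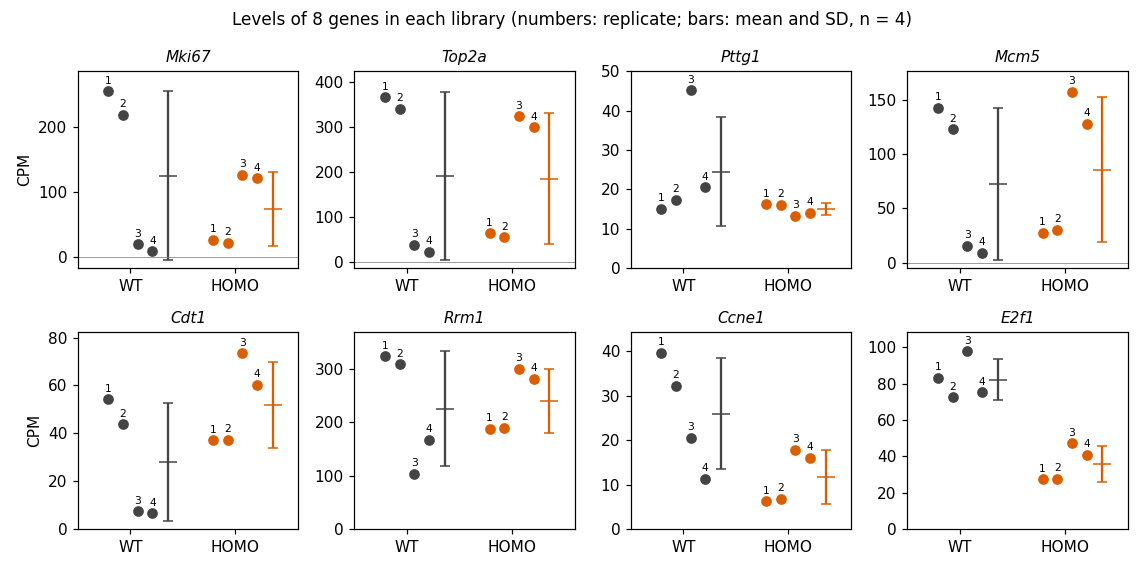
Level (CPM) of 8 genes in each WT (grey) and HOMO (orange) library, with the replicate number above each point and the mean and SD (n = 4) beside the points. *E2f1* is the one gene whose 4 HOMO libraries (27.5 to 47.2 CPM) all lie below the 4 WT libraries (72.5 to 97.6 CPM), and *Pttg1* is highest in WT3 (45.1 CPM).

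Of the 7 G1/S genes, *E2f1* (chr2:154559407-154569892, minus strand, no exon base shared with another gene) differed between genotypes. It encodes the activator E2F that RB holds back until S phase. *E2f1* was at 83.2, 72.5, 97.6 and 75.1 CPM in WT (82.1 ± 11.3, SD, n = 4 libraries) and at 27.5, 27.9, 47.2 and 41.1 CPM in HOMO (35.9 ± 9.83, SD, n = 4 libraries). All 4 HOMO libraries were below all 4 WT libraries. Within WT the highest was WT3, a library low in nearly all the other genes, whereas within HOMO *E2f1* kept the common order, with HOMO3 and HOMO4 above HOMO1 and HOMO2. The log2 fold change was −1.19 (SE 0.21, 95% interval −1.67 to −0.72, edgeR adjusted p = 0.0113). It stayed past the threshold in each of the 8 fits with 1 library left out, where it ran from −1.35 to −1.08. When the counts of the close pairs were summed, which leaves 3 WT and 2 HOMO units, its value was −1.20 with an edgeR adjusted p of 0.281. In that edgeR fit 0 genes of the whole table passed the adjusted threshold and 2057 had an unadjusted p under 0.05, and no other tool was run on the summed counts.

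*Ccne1* (chr7:38097984-38107534), which encodes cyclin E1, the partner of CDK2 at the G1/S border, came next and was named after its values were seen. It was at 39.7, 32.3, 20.6 and 11.4 CPM in WT and 6.29, 6.81, 17.9 and 16 CPM in HOMO. Only WT4 overlapped the HOMO range, yet the common order within each genotype was kept. Its log2 fold change was −1.15 (SE 0.47, edgeR unadjusted p = 0.0393, adjusted p = 0.135), so it did not pass after adjustment. *Ccne1*, *E2f8*, *Mki67*, *Plk1*, *Prc1* and *Rrm1* lie on chromosome 7, where the median log2 fold change over 990 tested genes was −0.30. Genes of this chromosome were also 0.38 higher in WT3 than in the other WT libraries on the log2 scale. The part of these shifts in the values of the named genes was not tested. *Ccne2*, encoding cyclin E2, was at 19.9, 17.5, 3.62 and 4.14 CPM in WT and 3.43, 3.39, 12.4 and 11.8 CPM in HOMO.

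The other 4 transcription factor genes followed the mitotic genes. *E2f7* and *E2f8*, E2Fs that repress G1/S genes late in S phase, were at 32.5 and 16.8 CPM in WT1 and at 2.17 and 0.968 CPM in WT4, and at 3.25 and 3.12 CPM in HOMO1 and 14.9 and 19.3 CPM in HOMO3. *Mybl2* (chr2:163054687-163084688), which encodes B-MYB, was at 30.4, 22.2, 1.61 and 1.51 CPM in WT and 4.55, 3.09, 20.9 and 20.3 CPM in HOMO, the widest WT range of the group at 20.2-fold. Its log2 fold change was −0.19 (SE 1.03, edgeR adjusted p = 0.919). *Foxm1* (chr6:128362967-128376146), the forkhead factor of G2, was at 164, 137, 16.1 and 12.2 CPM in WT and 23.0, 23.9, 117 and 104 CPM in HOMO (log2 fold change −0.30, SE 0.91, edgeR adjusted p = 0.853). *E2f1* was thus at WT1 and WT2 levels in WT3 and WT4, where *Foxm1*, *Mybl2*, *E2f7* and *E2f8* were low.

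Across the 54 genes, 1 was called (*E2f1*, lower in HOMO) and 0 were called higher. Calls needed, over all 14150 genes, an adjusted p under 0.05 with a log2 fold change beyond 0.6 either way, and 12.1% of all tested genes met this, 6.18% lower and 5.94% higher in HOMO. The 2 genotypes did not overlap in 1 of the 54 genes, against 27.3% of all tested genes. An unadjusted p under 0.05 was reached by 2 of the 54, *E2f1* and *Ccne1*, against 32.3% of all tested genes. The median log2 fold change was −0.33 over the 54 genes, with 46 lower and 8 higher in HOMO, and −0.04 over all tested genes. This direction was not stable. With the close pairs summed, 35 were higher and 19 lower (median 0.15), and with a replicate block 29 were higher and 25 lower (median 0.05). Without WT1, 40 were higher and 14 lower (median 0.24), and without WT2, 28 were higher and 26 lower (median 0.01). Under limma-voom with sample weights, 53 were lower and 1 higher (median −1.05). The same split was seen without WT3 (median −0.62), WT4 (−0.70) or HOMO3 (−0.69). DESeq2 and RLE scaling kept 46 lower and 8 higher. The median was −0.35 for mitosis, −0.24 for DNA replication and −0.54 for the G1/S group, and the last was between −0.29 and −0.12 without WT1, WT2, HOMO1 or HOMO2 and between −0.86 and −0.81 without WT3, WT4, HOMO3 or HOMO4.

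A p that misses the threshold does not show equal levels in WT and HOMO. The median standard error of the 54 log2 fold changes was 0.92, a value exceeded by 3.41% of all tested genes, whose own median was 0.26. The median half-width of the 95% interval was 2.10 on the log2 scale. For 45 of the 54 genes the interval held both −1 and 1, so these 8 libraries do not exclude a change of that size in either direction. For 52 of the 54 genes the interval held 0.

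**Figure D5:**
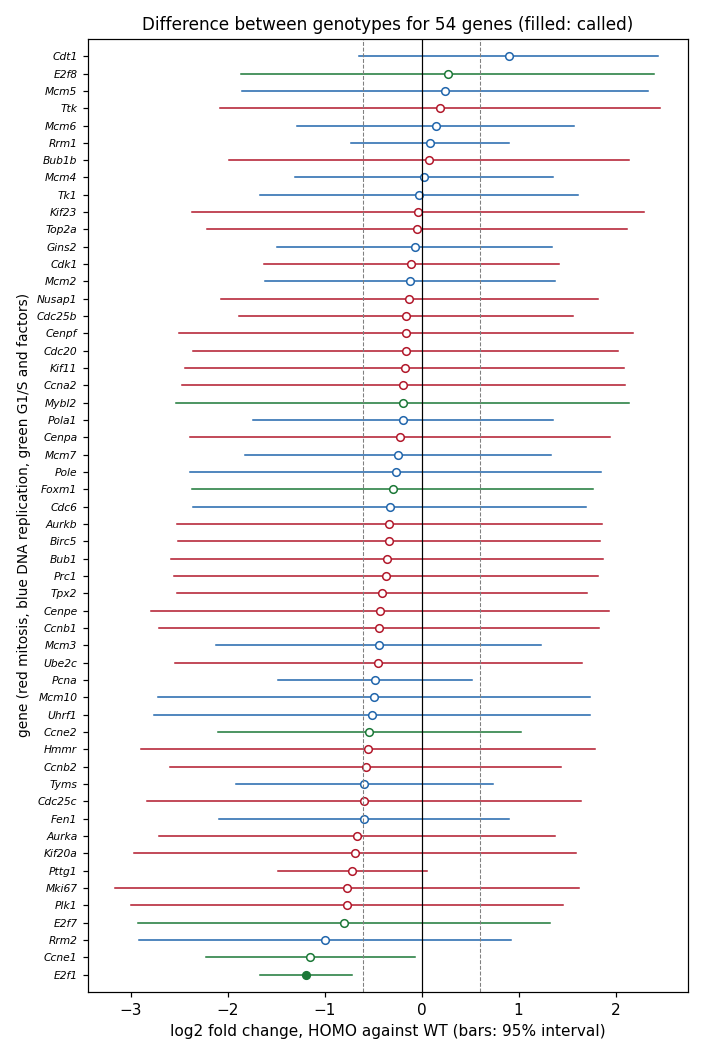
Log2 fold change of HOMO against WT for the 54 genes with 95% intervals computed from the edgeR fit, filled where called and with dashed lines at the fold change threshold of 0.6. Only *E2f1* is filled, and 52 of the 54 intervals hold 0.

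Further genes of the same processes, listed by function, showed the same order of libraries. Of 56 other mitosis genes, 54 had WT1, WT2, HOMO3 and HOMO4 as the 4 highest libraries, and *Bub3* and *Cks1b* did not. Of 52 other DNA replication genes, 44 did, against 7.84% of all tested genes. By the thresholds for a call, 1 of the 56 and 1 of the 52 were called, against 12.1% of all tested genes. One of the 56, *Bub3*, a checkpoint protein that binds BUB1, was called, with 89.9, 86.0, 94.6 and 56.7 CPM in WT and 41.8, 49.2, 56.6 and 52.9 CPM in HOMO (log2 fold change −0.71, SE 0.18, edgeR adjusted p = 0.0396). One of the 52, *Rnaseh2a*, the catalytic subunit of RNase H2, was called higher, with 25.8, 28.4, 26.2 and 14.8 CPM in WT and 38.7, 44.7, 48.4 and 41.6 CPM in HOMO (log2 fold change 0.87, SE 0.21, edgeR adjusted p = 0.0319). With 1 library left out, the call of *Bub3* was lost in 6 of 8 fits and that of *Rnaseh2a*, which lies on chromosome 8, in 5 of 8. Of the exon bases of *Rnaseh2a*, 14.7% are shared with an annotated gene of the same strand. The median log2 fold change was −0.29 for the other mitosis genes and −0.13 for the other replication genes.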

How the data were processed

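RNAseq of 4 WT and 4 HOMO pFB libraries was analysed from the counts per gene that the authors deposited as 1 table. Per the study's methods and processing notes, reads were trimmed with fastp, aligned to mm10 with STAR and counted with featureCounts. Versions and the strand setting are not given in the sources used here. The name of the deposited table marks it as one without an outlier, and whether a library was removed is not stated.

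Groups came from the sample labels. Genes were kept by filterByExpr, scaled by TMM and tested with edgeR 4.0.16 (quasi-likelihood F test, 2-sided, R 4.3.3) with Benjamini-Hochberg adjustment over 14150 genes. Genes with an adjusted p under 0.05 were called where the log2 fold change went beyond 0.6 either way. Log2 CPM used a prior count of 2. Depth ran from 17236521 to 31987790 counts. The procedure was tested on simulated data. Alternatives were DESeq2 1.42.0, RLE scaling, other filters, no fold change threshold, limma 3.58.1 (voom with sample weights), a replicate block, summed close pairs and leaving out each library. Positions are from GENCODE M21 (mm10) and promoters from RefSeq.

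The 54 genes and the further lists (other mitosis, other DNA replication, RB, DREAM and E2F family, cell type markers) were chosen with earlier results of these data known. Log2 fold changes are given for called genes and, in each of the 3 groups, for the gene with the highest mean CPM and the one with the widest WT range. *Ccne1*, *Pttg1*, *Cdt1*, *Fen1*, *Pcna* and *Rrm2* were added after their values were seen.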

Additional observations from a re-analysis of the deposited data

Results flagged for a closer look

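*Rnaseh2a* was at 3.90 log2 CPM in WT4, below the other 3 WT libraries at 4.70 to 4.83, a gap above Dixon's 95% limit for 4 samples. It was the 1 of 112 groups of 4 libraries tested that stood apart in this way, where chance alone gives about 1 in 20.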

How the results depend on the processing

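The call of *E2f1* was kept under every alternative run except the sum of the close pairs, and no other of the 54 genes was called except under limma-voom with sample weights. That fit gave WT2 a weight of 8.14 and WT3 and WT4 weights of 0.0927 and 0.164. It called 3 replication and 4 G1/S genes (*Pcna*, *Rrm2*, *Tyms*, *Ccne1*, *Ccne2*, *E2f1* and *E2f7*), 6 other mitosis, 11 other replication, 4 RB, DREAM and E2F family and 3573 of all genes, and turned *Rrm1* to −0.28. DESeq2 called 2 other replication and 2913 of all genes. Without a filter on low counts 0 other mitosis genes were called, and without the fold change threshold 2 RB, DREAM and E2F family genes were.

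Replicate numbers did not pair the libraries (correlation of deviations between −0.124 and 0.014), and the labels give them no shared source. With the replicate block 947 genes were called in all, 0 of them other mitosis or other replication genes, and *Top2a* turned to 0.40, *Uhrf1* to 0.0805, *Foxm1* to 0.14 and *Mybl2* to 0.40. With the close pairs summed, edgeR called 0 genes in each list and among all genes, with 2057 at an unadjusted p under 0.05. Summing left fewer units, and why the calls were lost was not tested. In that fit *Top2a* was at 0.43, *Foxm1* at 0.18 and *Mybl2* at 0.33.

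With 1 library left out, calls ranged from 507 (without HOMO1) to 2192 (without WT3) over all genes, from 0 to 1 for other mitosis, from 0 to 2 for other replication and from 0 to 1 for RB, DREAM and E2F family genes. The log2 fold change ran from −0.46 to 0.47 for *Top2a*, −0.15 to 0.31 for *Rrm1*, −0.97 to 0.14 for *Uhrf1*, −0.71 to 0.27 for *Foxm1*, −0.59 to 0.52 for *Mybl2* and −0.97 to 0.0245 for *Fen1*. Without a change of sign it ran from −1.16 to −0.16 for *Mki67*, 0.57 to 1.44 for *Cdt1*, −1.52 to −0.49 for *Rrm2*, −0.73 to −0.18 for *Pcna* and −0.89 to −0.24 for *Pttg1*. The end nearest 0 was without WT1, except for *Cdt1* (without WT4) and *Pttg1* (without WT3). The median ran from −0.70 to 0.24 for the 54 genes, −0.78 to 0.22 for mitosis, −0.58 to 0.31 for replication, −0.86 to −0.12 for the G1/S group, −0.72 to 0.21 for other mitosis, −0.36 to 0.25 for other replication and −0.32 to 0.19 for the RB, DREAM and E2F family, each highest without WT1. RLE scaling moved the median of all genes by less than 0.01. The causes were not tested.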

Other observations

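The 22 RB, DREAM and E2F family genes, which hold the cell cycle genes silent or control their release, varied far less over the libraries than the 54 genes. The median fold between the highest and lowest library was 2.21 within WT and 1.32 within HOMO. WT1, WT2, HOMO3 and HOMO4 were the 4 highest libraries in 8 of the 22, against 7.84% of all tested genes. None was called by edgeR, against 12.1% of all tested genes. An unadjusted p under 0.05 was reached by 5 of the 22, against 32.3% of all tested genes. The following 2 genes passed the adjusted threshold with a smaller fold change than calls required and were named after their values were seen. *E2f4*, the E2F of the DREAM complex, was at 61.8, 57.0, 56.1 and 42.8 CPM in WT and 70.2, 75.8, 87.3 and 81.5 CPM in HOMO (log2 fold change 0.53, edgeR adjusted p = 0.0464). It lies on chromosome 8, where the median log2 fold change over 742 tested genes was 0.37. The part of this shift in the value of *E2f4* was not tested. *Rbbp4*, a histone-binding subunit of DREAM, was at 119, 107, 115 and 117 CPM in WT and 91.1, 92.0, 85.8 and 88.3 CPM in HOMO (log2 fold change −0.36, edgeR adjusted p = 0.0493). Neither gene overlapped between genotypes, as 3 of the 22 did not, against 27.3% of all tested genes, and 18.0% of the exon bases of *Rbbp4* lie in exons of a gene on the other strand.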
